A study of Mus musculus with 2 samples.

Results

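Spi1, which encodes the transcription factor PU.1, and its closest paralogues Spib and Spic were examined for open chromatin in mouse megakaryocytes. They are 3 of 21755 protein-coding genes in the GENCODE M21 annotation of build mm10. Every deposited peak that overlapped the body of one of these genes or lay within 50 kb of it was taken. This gave 48 peaks of 108778 in replicate 1 and 50 of 114523 in replicate 2. After overlapping peaks were merged, 29 regions were found in both replicates (shared regions), of 69539 in the genome: 12 around Spi1, 11 around Spib and 6 around Spic.

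The measurements came from ATAC-seq, in which a transposase cuts and tags accessible DNA, on megakaryocyte primary cells, the platelet-forming cells of the marrow. The single group had 2 biological replicates from adult male C57BL/6J mice aged 5 to 6 weeks, with 50000 cells per sample. Sequencer models are named on the label of replicate 2 only. No genotype change or treatment is named, and both replicates point to the same donor record, so the spread between them may be partly technical. With 1 group, no comparison between conditions and no test was possible, and all results below describe these 2 samples.

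PU.1 belongs to the ETS family, whose members bind DNA around a GGAA core. High PU.1 drives macrophage fate and lower PU.1 favours B cells, while PU.1 and GATA1, the erythroid and megakaryocytic regulator, oppose each other. Transcription of Spi1 is known to depend on a distal upstream regulatory element that binds RUNX1, C/EBP factors and PU.1 itself. Spi-B, the product of Spib, acts in B cells and plasmacytoid dendritic cells, and Spi-C, the product of Spic, acts in the red pulp macrophages that recycle iron.

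Distances are given in kb from the summit of a region to the principal transcript start of its gene, with negative values upstream. The values are fold enrichments over the local background, as deposited, and are given for replicate 1 and then replicate 2, with mean ± SD (n = 2). The sequences of 4 regions are printed because the description of the loci turns on them: a pair of upstream regions of Spi1, the exonic region of Spib and the strongest region of Spic away from any start. Each is 201 bases centred on the summit, from build GRCm38.p6 (mm10), plus strand, at chr2:91082974-91083174, chr2:91089131-91089331, chr7:44528020-44528220 and chr10:88712379-88712579. Capitals mark matches, on either strand, to the patterns PU.1-type (GNGGAAGT), ETS core (AGGAAG), RUNX (TGNGGT), C/EBP (TTGCNNAA) or SP/KLF (GGGCGG).
Spi1 -13.0 kb: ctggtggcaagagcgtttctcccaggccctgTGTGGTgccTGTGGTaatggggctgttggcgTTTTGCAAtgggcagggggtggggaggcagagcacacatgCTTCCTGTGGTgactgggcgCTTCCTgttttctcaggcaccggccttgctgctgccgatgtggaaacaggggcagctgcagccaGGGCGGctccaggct
Spi1 -6.9 kb: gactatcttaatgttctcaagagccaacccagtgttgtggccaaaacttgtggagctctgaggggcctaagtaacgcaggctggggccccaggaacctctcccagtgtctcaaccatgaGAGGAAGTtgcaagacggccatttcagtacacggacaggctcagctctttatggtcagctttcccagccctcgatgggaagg
Spib +4.0 kb: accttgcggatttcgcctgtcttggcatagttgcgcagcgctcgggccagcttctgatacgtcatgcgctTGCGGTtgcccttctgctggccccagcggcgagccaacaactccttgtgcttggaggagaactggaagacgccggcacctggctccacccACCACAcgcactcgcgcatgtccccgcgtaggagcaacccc
Spic -29.5 kb: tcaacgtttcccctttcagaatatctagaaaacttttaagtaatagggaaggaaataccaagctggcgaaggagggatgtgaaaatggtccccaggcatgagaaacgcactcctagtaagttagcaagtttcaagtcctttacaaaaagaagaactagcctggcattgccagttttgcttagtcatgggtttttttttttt

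The Spi1 record spans chr2:91082390-91115756 on the plus strand (ENSMUSG00000002111.8). Of its 4 annotated starts, the principal one lies at position 91096096, and 2 alternative starts lie at -13.7 kb. The RefSeq start of Spi1 lies 582 bp downstream of the principal GENCODE start, at position 91096678.

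The start of Spi1 was open in both replicates. The region at +0.6 kb (chr2:91096252-91097387) had fold enrichments of 10.4 and 9.21, or 9.79 ± 0.814 (SD, n = 2). Its summit lay 0.038 kb from the RefSeq start. Across the genome, 59.8% of coding genes were open in both replicates within 500 bp of a start, and the strongest such region had a median of 11.5 (quartiles 8.66 and 14.3). By fold enrichment, the Spi1 promoter therefore lay in the lower part of the middle range of open promoters. Its place among open promoters by −log10 p was not computed.

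Upstream of the principal start, 8 shared regions were found, and the nearest 4 lay inside or next to the Spi1 record. They are described here by distance from the start. The region at -6.9 kb (chr2:91089081-91089399), in an intron of the longer transcripts, had values of 7.01 and 5.97, or 6.49 ± 0.731. The region at -11.4 kb, also intronic, was weak, with 3.52 and 3.25.

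The strongest of these was the region at -13.0 kb (chr2:91082879-91083665), with values of 7.73 and 7.83, or 7.78 ± 0.0739. The replicates differed there by 0.02 on the log2 scale, against an SD of 0.24 over all shared regions. It held 3 summits in each replicate, of which the 2 weaker ones had values between 2.09 and 2.39. It is an intronic region of the longer transcripts that begins within 500 bp of their starts, and it lay 13.6 kb from the RefSeq start. That is the stretch in which the upstream regulatory element is known to lie. The files hold no coordinates of that element, so the match was not tested. A weaker region at -14.8 kb (chr2:91080894-91081408), outside the record, had 4.06 and 3.95.

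Further upstream the shared regions lay at the starts of other genes or inside one. Which genes they act on was not tested. The strongest region of the whole window, at -42.1 kb, lay at the start of Psmc3, a proteasome subunit gene, with 19.6 and 17.1, or 18.3 ± 1.76. Only 1.04% of all shared regions were as strong. The region at -53.2 kb lay at the start of Rapsn, a gene of the neuromuscular synapse, with 15.0 and 16.5. The region at -25.5 kb lay at the start of Slc39a13, a zinc transporter gene, with 13.0 and 13.1. In between, a weak region in an intron of Psmc3 at -35.1 kb had 3.80 and 3.60. By both fold enrichment and −log10 p the strongest upstream region was thus the Psmc3 start, not a region in or next to Spi1.

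Downstream of the start, 3 intronic regions of Spi1 were shared, all weaker than the promoter in both replicates. They lay at +2.3 kb (3.98 and 4.81), at +5.5 kb (4.20 and 5.16) and at +17.4 kb (5.12 and 5.46). In these 3 regions replicate 2 was the higher one, whereas at +0.6 kb and -6.9 kb replicate 1 was. Another 3 regions of the window were listed in 1 replicate only: -30.4 kb in replicate 1 (3.91), and -8.4 kb (3.46) and +36.1 kb (4.33) in replicate 2. The files give no read counts, so the sequencing depth behind each list is unknown, and absence from a list says only that nothing was called at that depth. The replicated list of the pooled samples held 2 further weak regions, at -17.7 kb (2.22) and +23.4 kb (2.07).

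**Figure D1:**
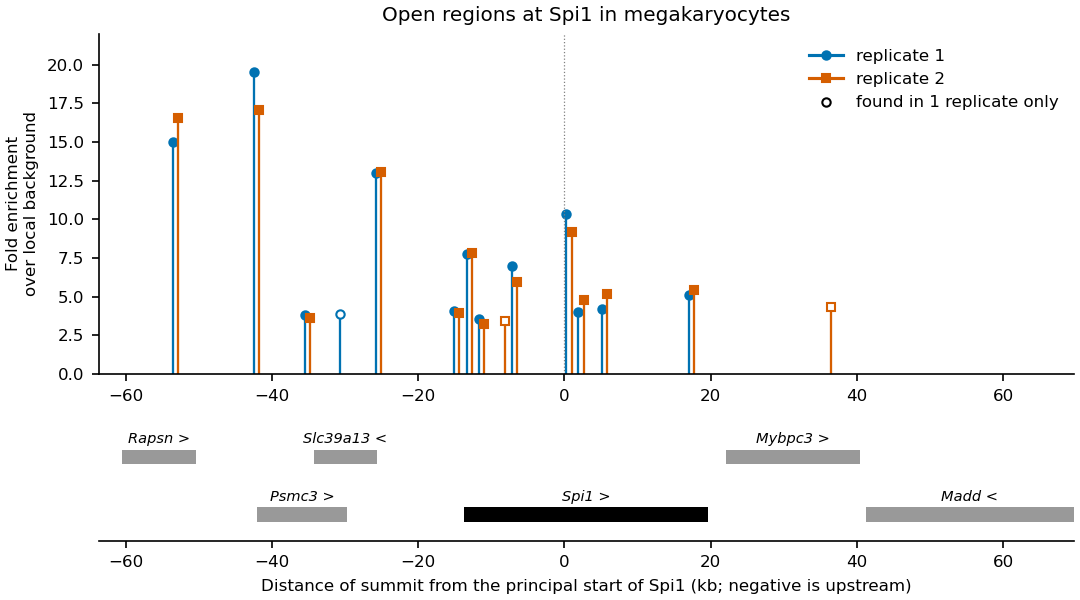
Fold enrichment of each open region around Spi1 (vertical axis) by distance of its summit from the principal start (horizontal axis, kb). Circles are replicate 1, squares replicate 2 and open symbols regions listed in 1 replicate; the paired symbols of a region are drawn slightly apart. Bars below show Spi1 (black) and neighbouring coding genes, with > for genes that read in the direction of Spi1. The tallest pair, at -42.1 kb, stands at the start of Psmc3, and the pairs at -13.0 kb, -6.9 kb and +0.6 kb stand out within Spi1.

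The regions of Spi1 ranked differently by the other deposited measure, the −log10 p of the strongest summit. By fold, 47.3% of all shared regions were at or above the -13.0 kb region, but by −log10 p (mean 85.7) only 8.9% were. For the promoter these shares were 30.3% and 11.5%, for -6.9 kb 61.6% and 36%, and for -14.8 kb 93.2% and 55.4%. Of the 7 regions on the Spi1 record and the one at -14.8 kb, 7 of 8 stood higher by −log10 p than by fold, the exception being +17.4 kb. Over whole windows, 8 of 12 regions stood higher by −log10 p around Spi1, 4 of 11 around Spib and 4 of 6 around Spic. The cause of this difference was not tested.

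**Figure D2:**
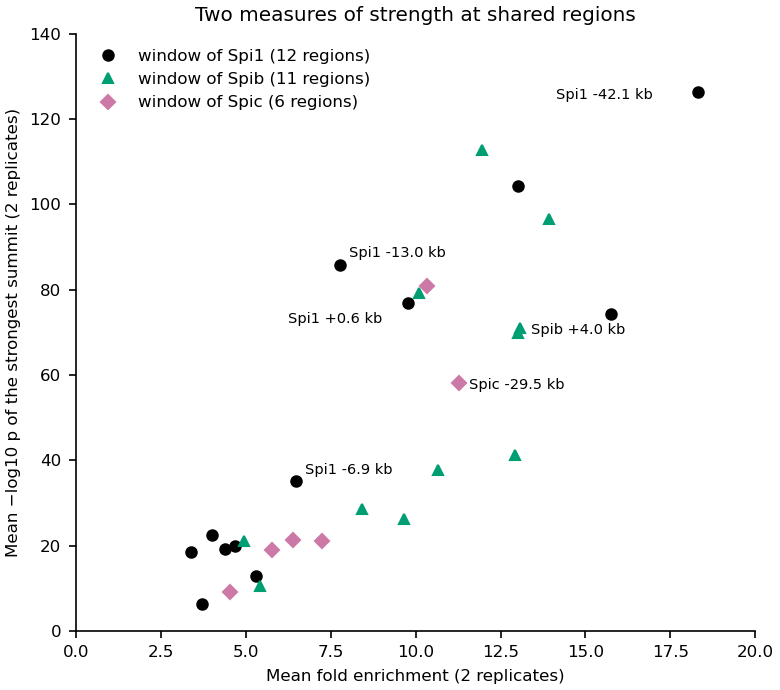
Mean −log10 p of the strongest summit (vertical axis) against mean fold enrichment (horizontal axis) of the 29 shared regions, 1 point per region, each a mean of 2 replicates. The -13.0 kb region of Spi1, at a fold of 7.78, has a −log10 p of 85.7, above the 58.2 of the -29.5 kb region of Spic, whose fold is 11.3.

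Spib lies at chr7:44525993-44532071 on the minus strand (ENSMUSG00000008193.13) in a dense stretch of genes. No region was listed at its own starts in either replicate: its 3 starts had none within 500 bp, nor within 1 kb. The body of Spib nevertheless held a strong region at +4.0 kb (chr7:44527540-44528497), with values of 13.1 and 13.0, or 13.1 ± 0.0425. Over all coding genes, 68.4% had a shared region on the gene body. The summit lay inside coding sequence of Spib (chr7:44527962-44528257), and the printed window lies wholly within that exon. Only 12.1% of all shared regions were as strong, and by −log10 p 13.4%.

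The nearest region upstream of Spib, at -2.3 kb, had 7.96 and 8.90, or 8.43 ± 0.663. It fell in an exon of Pold1, the gene of the catalytic subunit of DNA polymerase delta, within 500 bp of an annotated Pold1 start. In an intergenic stretch, the region at -29.1 kb had 10.8 and 10.5, or 10.7 ± 0.181, and the one at -25.0 kb had 5.06 and 4.86. The others sat at starts of other genes or in Mybpc2. The region at -16.8 kb (12.5 and 11.4) was at the main start of Pold1 and that at -21.9 kb (10.7 and 9.48) at Nr1h2, the gene of the oxysterol receptor LXR beta. The region at -40.5 kb (13.2 and 12.8) was at Napsa, that at +35.5 kb (14.4 and 13.4) at the paired starts of Emc10 and Fam71e1, and that at +46.8 kb (11.9 and 13.9) at 5430431A17Rik. Those at +30.2 kb (10.4 and 8.94) and +10.2 kb (5.63 and 5.21) lay in introns of Mybpc2, the first also at the start of Gm44646. The replicates had all 11 regions in common.

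Spic lies at chr10:88674772-88685015 on the minus strand (ENSMUSG00000004359.16). It had no shared region on its body or at its starts, and the nearest shared region began 23.7 kb from the gene. Over all coding genes, 19.7% had none on the body or within 20 kb. All 6 shared regions of the window lay upstream, between -25.9 kb and -48.4 kb. The strongest, at -29.5 kb (chr10:88712291-88712794), was intergenic and had 10.8 and 11.7, or 11.3 ± 0.670. The region at -48.4 kb, at the start of the GTPase gene Arl1, had 10.3 in both replicates.

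The other 4 regions around Spic were weaker. They lay at -25.9 kb (6.27 and 6.52), -31.9 kb (4.94 and 6.63), -36.6 kb (4.04 and 5.03) and -42.5 kb (6.72 and 7.76). Replicate 2 was higher in all 4, and at -31.9 kb the replicates were furthest apart of all 29 regions on the log2 scale, by 0.43. Such a distance from the median ratio or a larger one was found in 11.8% of all shared regions. On the other side of Spic, a region at +13.1 kb was listed in replicate 2 only, at 4.66.

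**Figure D3:**
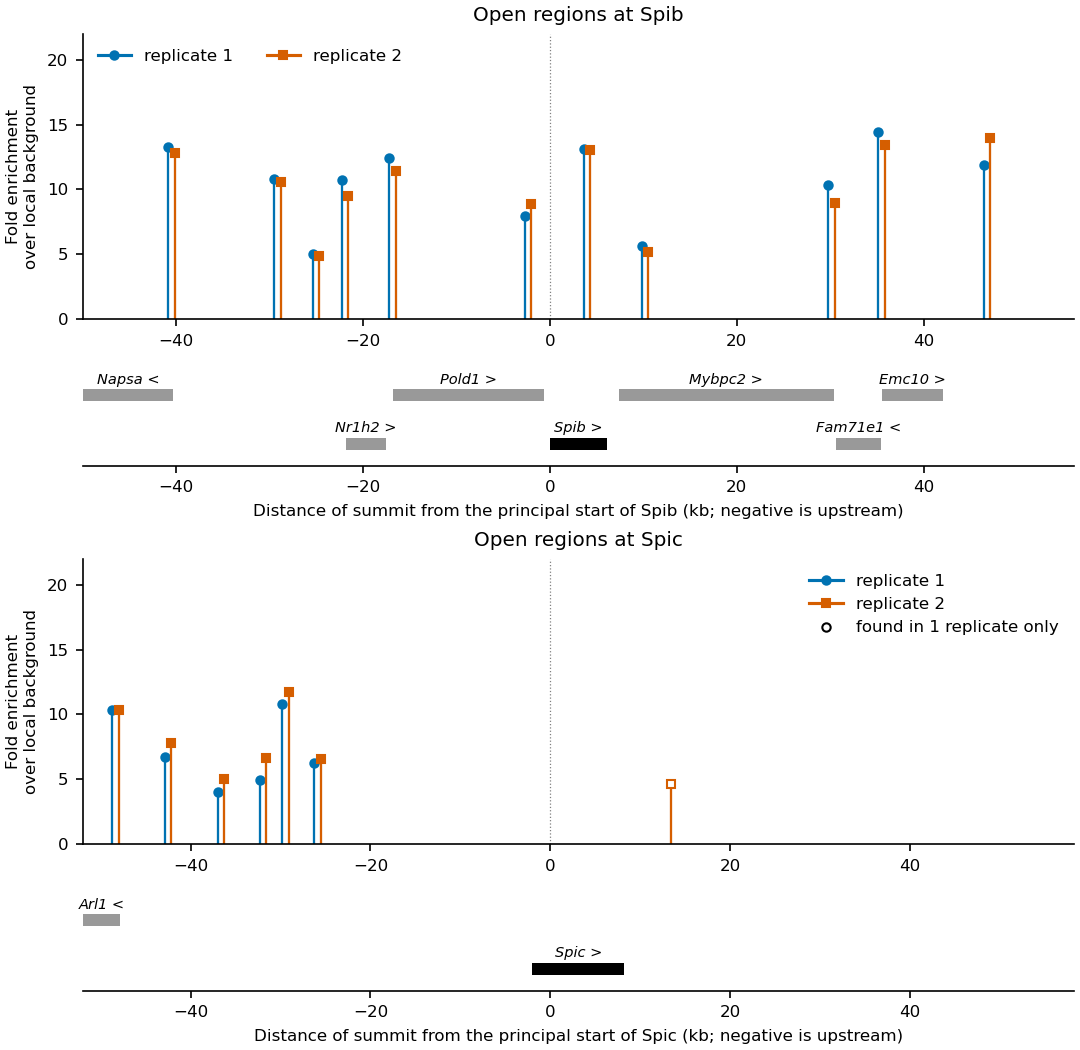
Fold enrichment of the open regions around Spib (upper pair of panels) and Spic (lower pair) by distance of the summit from the principal start of each gene, drawn as for Spi1, with coding genes as bars. No region stands at the start of either gene; the region at +4.0 kb lies in the body of Spib, and the 6 shared regions of Spic all lie upstream, from -25.9 kb outwards.

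Counted over the gene body and 50 kb to each side, Spi1 had 12 shared regions, and 22.8% of coding genes had at least as many. Spib had 11, and 27.7% had at least as many, and for Spic with 6 this share was 58.1%. The median coding gene had 7 (quartiles 3 and 11). Per Mb of window the values were 90.0 for Spi1, 104 for Spib and 54.4 for Spic, against a median of 49.3. Of the shared regions, those with no part within 1 kb of any annotated start numbered 6 at Spi1, 4 at Spib and 4 at Spic.

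**Figure D4:**
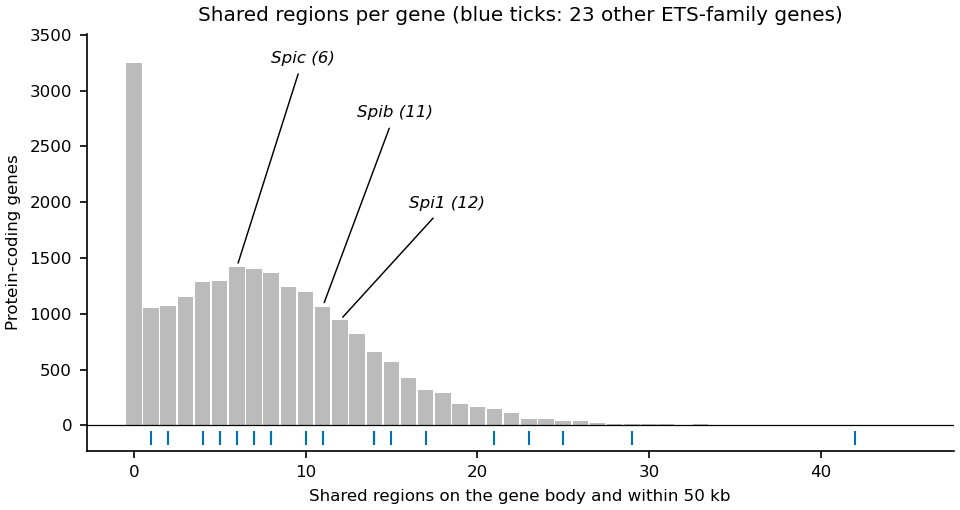
Number of coding genes (vertical axis) by the number of shared regions on the gene body and within 50 kb (horizontal axis, drawn up to 45; the highest count is 320). Labels mark the counts of Spi1, Spib and Spic, and blue ticks under the axis mark those of 23 other ETS-family genes. Spi1 and Spib lie above the median of 7 and Spic just below it.

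Among the motif patterns searched in 201-base windows at the summits, the -13.0 kb region of Spi1 printed above held 3 RUNX matches, 1 C/EBP match, 1 SP/KLF match and 2 ETS core matches. The share of all shared regions with at least 1 match was 43.2% for RUNX, 13.4% for C/EBP, 18.3% for SP/KLF and 46.2% for the ETS core. The share with more than 1 match was not computed. One ETS core match began 2 bases from the summit and shared its last base with a RUNX match. No PU.1-type match was present in that window. The ETS core pattern was added after this sequence had been seen. The promoter window of Spi1 held 1 match to each of the same 4 patterns. The -6.9 kb window held a PU.1-type match 19 bases from the summit, within which an ETS core match lay, and 16.3% of all shared regions had a PU.1-type match.

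Over the loci, PU.1-type matches were present in 3 of 12 shared regions at Spi1 (-25.5 kb, -14.8 kb and -6.9 kb), 1 of 11 at Spib and 1 of 6 at Spic. RUNX matches were present in 5 of 12 at Spi1, 4 of 11 at Spib and 0 of 6 at Spic. The longer ETS-class pattern (CCGGAAGT), present in 1.96% of all shared regions, occurred in 1 region, at the Nr1h2 start -21.9 kb from Spib, with 5 matches. C/EBP, SP/KLF and ETS core matches were each present in 8 of the 29 shared regions. Over all shared regions these shares were 13.4%, 18.3% and 46.2%. The exonic region of Spib held 2 RUNX matches, and the -29.5 kb region of Spic held a match to none of the 10 patterns. GATA patterns (AGATAA or TGATAA), present in 12.8% of all shared regions, matched in 1 region around each gene: -35.1 kb at Spi1, +35.5 kb at Spib and -31.9 kb at Spic. The remaining patterns were AP-1 (TGANTCA; 9.16% of all shared regions and 4 of these 29), IRF (GAAA, any 2 bases, GAAA; 3.46% and 0 of 29) and the ETS-IRF composite (GGAA, any 2 bases, GAAA; 4.94% and 1 of 29). A match is a description of the sequence and shows no binding.

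The windows differed in base composition. The 5 regions of Spic other than the Arl1 start had GC contents between 32.8% and 47.8%, below the median of 50.7% over all shared regions. The -13.0 kb window of Spi1 had 63.2%, and the exonic window of Spib had 63.7% with 17 CpG dinucleotides.

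The starts of Spib and Spic, which had no region, are printed for comparison from RefSeq promoters (GRCm38.p6), which matched 2 of the 3 genes. Each is the 200 bases before the start, in the direction of transcription (minus strand, chr7:44532072-44532271 and chr10:88683024-88683223), with matches to the same patterns in capitals.
Spib upstream: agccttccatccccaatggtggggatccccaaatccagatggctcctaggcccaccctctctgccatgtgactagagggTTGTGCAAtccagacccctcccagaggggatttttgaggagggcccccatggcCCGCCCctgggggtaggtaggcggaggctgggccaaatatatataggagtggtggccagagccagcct
Spic upstream: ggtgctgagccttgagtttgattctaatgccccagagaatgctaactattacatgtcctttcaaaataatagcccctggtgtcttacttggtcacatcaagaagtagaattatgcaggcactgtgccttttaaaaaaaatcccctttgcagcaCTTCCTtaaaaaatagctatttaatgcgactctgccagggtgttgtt
The Spib sequence held 1 C/EBP and 1 SP/KLF match, with a GC content of 61%, and the Spic sequence held 1 ETS core match, with 40.5%.

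The other ETS-family genes put the paralogues in context. Of 23, 19 (82.6%) had a shared region at a start, against 59.8% of all coding genes, with a median fold of 10.6. In the order of promoter fold enrichment over the 20 genes with one, Spi1 came 14th, between Elf1 (9.85 and 10.1) and Ehf (9.29 and 9.12). The replicate values of Spi1 overlapped with those of both neighbours. The order uses the strongest region at any annotated start, which for some genes is far from the principal start. The region used lay 34.4 kb downstream of the principal start for Elf1, 12.4 kb for Ehf and 212 kb for Etv6, among others. Highest were Elk1 (17.4 and 17.7), Etv5 (15.0 and 14.8) and Ets1 (14.3 and 12.9). Lowest was Fli1, a megakaryocytic regulator, with 3.19 and 3.35. Etv2, Fev and Spdef had no region at a start, and Erg had one in replicate 1 only. By number of shared regions the family was led by Etv6 (42), Erg (29) and Fli1 (25), all above the 12 of Spi1, and these genes differ in length, which sets the size of the window. Per Mb of window Erf was highest with 139, Etv6 had 126 and Fli1 113. Erg, with 88.6 per Mb, was just below Spi1 with 90.0.

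**Figure D5:**
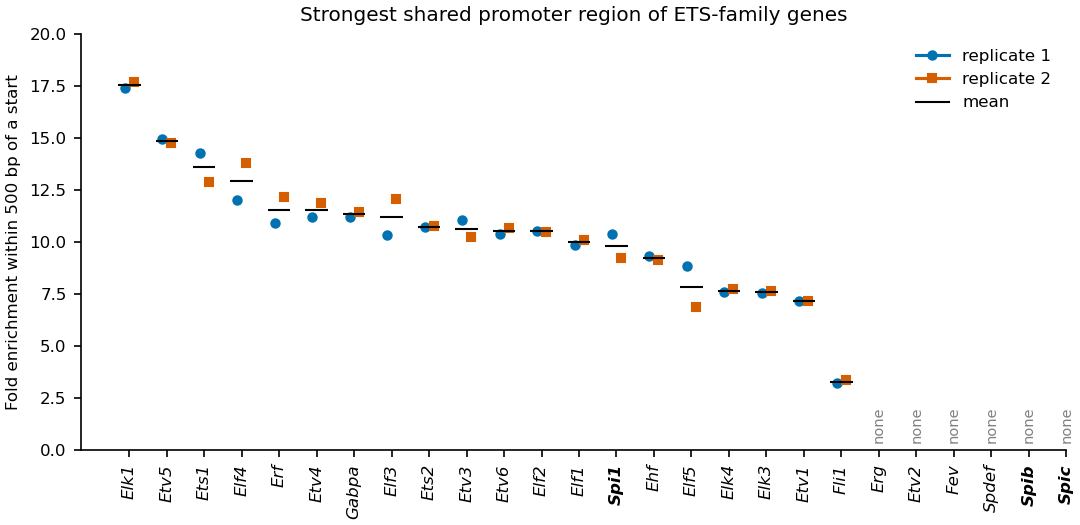
Fold enrichment of the strongest shared region within 500 bp of any annotated start (vertical axis) for 26 ETS-family genes. Genes are ordered by the mean (horizontal line) of replicate 1 (circles) and replicate 2 (squares). Spi1 stands 14th, with 10.4 and 9.21, and Spib and Spic are among the 6 genes with no such region.

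All 12 listed regulators of Spi1 and partners of PU.1 had a shared promoter region, against 59.8% of all coding genes. Their median fold of 7.33 lay below the lower quartile of all open coding promoters (8.66). Among them were Irf4 (12.5 and 12.9) and Irf8 (11.7 and 10.9), whose products bind DNA together with PU.1 or Spi-B, and Cbfb (11.0 and 10.2), the partner of RUNX proteins. Runx1 had the most shared regions, 36, with a promoter at 6.94 and 7.39, followed by Ikzf1 with 24 and Cebpa with 19. Gata1 (8.02 and 6.97) had 3. Its promoter region lay 3.63 kb downstream of the principal start, at another annotated start, as in some other genes of this list.

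Of 27 listed targets of PU.1, 26 (96.3%) had a shared promoter region, against 59.8% of all coding genes. These promoters were weak by fold enrichment, with a median of 6.80, against a median of 11.5 and a lower quartile of 8.66 over all open coding promoters. Their −log10 p was not compared. The highest were the receptor tyrosine kinase gene Flt3 (14.7 and 13.7), the B cell receptor modulator Cd22 (12.8 and 12.9) and the lipopolysaccharide receptor Tlr4 (11.9 and 11.1). The Cd22 region lay 6.99 kb downstream of the principal start, at another annotated start. The exception was Elane, neutrophil elastase, although 18 shared regions lay within its window. Itgb2, the beta-2 integrin gene, had the most, 21, and Fcgr3, an Fc receptor gene, had 18. Of 3 genes linked to Spi-C, Hmox1 (12.4 and 12.1) and Slc40a1 (12.5 and 11.2), both of iron recycling, had a shared region at the start. Vcam1 had none listed.

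The marker lists put these values beside the cell label. Of 14 megakaryocyte markers, 4 (28.6%, against 59.8% of all coding genes) had a shared promoter region: Itga2b (13.9 and 13.0), Vwf (9.64 and 9.15), Itgb3 (8.08 and 7.16) and Pf4 (4.07 and 5.06). A further 3, Gp1ba, Gp9 and Selp, had one in a single replicate, and the others, among them Gp1bb, Gp5, Gp6, Ppbp, Tubb1 and Treml1, had none listed. Of 12 neutrophil markers, 11 (91.7%) had one, all but Elane, among them S100a8 (7.88 and 7.29) and Mmp8 (12.2 and 11.5). The summed promoter fold was 35.7 and 34.4 over the 4 megakaryocyte promoters and 81.1 and 79.6 over the 11 neutrophil promoters. Per open promoter the order was the other way, with a median of 8.51 for megakaryocyte and 7.52 for neutrophil markers. Regions at any annotated start are counted here, not only those at the principal start. The summit lay 50.5 kb downstream of the principal start at Vwf and 2.62 kb downstream at Itga2b. It lay within 0.116 kb at Itgb3 and 0.023 kb at Pf4, whose mean folds were 7.62 and 4.56. The higher megakaryocyte median thus rests on the regions at Vwf and Itga2b, away from the principal start. Among the neutrophil markers, Mpo was counted through a region at +9.20 kb. The counts were 7 of 12 (58.3%) for macrophage, 5 of 10 (50%) for B cell, 4 of 8 (50%) for erythroid and 4 of 6 (66.7%) for dendritic cell markers, all near the 59.8% of coding genes, with no shared promoter region at C1qa, Klf1 or Xcr1, among others. Peaks pool all cells of a sample, so a region open in a few cells and one open weakly in all cannot be told apart. The part of other cell types in the openness of Spi1 and of the PU.1 targets was not tested.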

How the data were processed

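ATAC-seq was measured in 2 replicates of mouse megakaryocytes, which formed 1 group by their labels. Per the labels, the deposited peaks were called on build mm10. The aligner and the peak caller are not given in the sources used here. The authors deposited, for each peak, a fold enrichment over local background (a ratio, by the peak format) and a −log10 p-value and −log10 q-value. The deposited lists of each sample held no p-value above 0.00997. Values of the replicates were set side by side as deposited, since no source names a scaling. Read counts were not among the files, so depth is unknown and intervals were not computed.

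Peaks of the pseudoreplicated list of each replicate were merged where they overlapped by 1 bp, and the highest fold and its summit were kept. Shared regions are unions of regions of replicate 1 and replicate 2 with at least 1 bp in common, on chromosomes 1 to 19 and X. A region counted for a gene when it touched the body or 50 kb to each side, and for a promoter when it lay within 500 bp of any GENCODE M21 start. The −log10 p of a region is that of its strongest summit. Motifs were searched as text on both strands in 201 bp around the summit of the replicate with the higher fold. Computation used Python 3.11.15, numpy 2.4.6 and matplotlib 3.10.9, and the merging and overlap steps were tested on simulated data.

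The genes, the lists of related genes and the markers were chosen with earlier results of these data known, so counts over them support nothing independently. All 118 listed symbols matched, and 9 were in more than 1 list. Some marker genes are not reported here by name. Genes named from a list are the 3 with the highest promoter fold, the 3 with the most shared regions and those with no shared promoter region. Gata1 and the marker genes of cell types were named after their values were seen, and Elf1, Ehf and Fli1 for their place in the order of the family. Alternatives were the IDR-thresholded lists of each sample, the replicated and conservative lists of the pooled samples, 50% reciprocal overlap, peaks of at least 4-fold, windows of 20 kb and 100 kb, distal regions only, 1 kb around starts, the principal start only, and each replicate left out. Other deposited lists of the pooled series were not used.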

Additional observations from a re-analysis of the deposited data

How the results depend on the processing

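No paired analysis was possible because the samples form 1 group. The number of shared regions at Spi1 (12) fell to 6 when only distal regions were counted. At Spib (11) it was 4 for distal regions only and 4 within 20 kb. At Spic (6) it was 0 within 20 kb and 11 within 100 kb. These settings count fewer or more bases or classes of region by construction. All other settings kept the 3 counts within 1.5 times: the range was 8 to 17 at Spi1, 10 to 15 at Spib and 4 to 7 at Spic. With each replicate left out, the counts ranged from 13 to 14 at Spi1, 11 to 13 at Spib and 6 to 7 at Spic. The promoter of Spi1 lay between 9.21 and 10.4 under all settings run, and none gave a region at the starts of Spib or Spic. The strongest upstream region of Spi1 stayed at -42.1 kb by −log10 p. Of the 29 regions, 22 were in the IDR-thresholded lists of both samples, 26 in the conservative list and 29 in the replicated list. In those last 2 lists 12 and 13 values moved by more than the SD between replicates, by at most 1.14 times. The regions not in the conservative list were -35.1 kb at Spi1, +10.2 kb at Spib and -36.6 kb at Spic. Those regions, and +2.3 kb and +17.4 kb at Spi1, were in the IDR-thresholded list of neither sample. The regions at +5.5 kb of Spi1 and -42.5 kb of Spic were in that of replicate 2 only.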
